A study of Mus musculus with 6 samples.

Results

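The Myc, Max and Mxd network is a set of 9 genes taken by symbol from the deposited count table, Myc, Max, Mxd1, Mxd3, Mxd4, Mxi1, Mnt, Mga and Mlx, out of 23366 gene symbols in all. All 9 were found in the table, and all 9 passed the filter on low counts. RNA was sequenced from CD4+GFP+ regulatory T (Treg) cells that had been purified by flow cytometry from the liver (n = 3 libraries) and the spleen (n = 3 libraries). Every library came from Foxp3GFP knock-in mice, 12 days old, whose Foxp3 locus carries a green fluorescent protein reporter; Foxp3 is the factor by which Treg cells are defined. Both tissues therefore share the genotype and the age, and the sort rests on CD4 and the reporter. The labels give no animal, pool or pairing, so the spread behind the p-values is that between these libraries and may be technical.

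Myc is a transcription factor that drives growth, ribosome production and metabolism in activated lymphocytes. It binds DNA only as a dimer with Max, at the E-box sequence CACGTG. The Mxd proteins (Mxd1, Mxd3, Mxd4 and Mxi1) and Mnt also dimerise with Max and bind the same sequence, but recruit the Sin3 corepressor and its histone deacetylases. Mga, a large protein that pairs with Max, belongs to a variant Polycomb complex, and Mlx is a Max-like protein whose partners include the nutrient-sensing Mondo proteins.

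The E-box itself occurred in the promoters of several of these genes, and those windows are shown because the network's own dimers recognise this sequence. RefSeq promoter windows of GRCm38.p6, from 250 bases before to 50 bases after a gene's start, were matched by symbol for 8 of the 9 genes, Myc being the gene without an entry, and gave 10 windows. The motif CACGTG, which reads the same on both strands, was found in 4 of the 10, and in 7.15% of 32851 windows of the same length over the genome's genes. Each stretch below holds the E-box in capitals with its flanking bases, read 5′ to 3′ on the strand of the gene.
Max: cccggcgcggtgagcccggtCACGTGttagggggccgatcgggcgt
Mlx: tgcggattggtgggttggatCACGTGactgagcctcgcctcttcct
Mnt: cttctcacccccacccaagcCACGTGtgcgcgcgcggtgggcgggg
Mxd4: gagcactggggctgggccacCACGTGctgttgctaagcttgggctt
The Max stretch lies at chr12:76962226-76962271 on the minus strand, and its E-box begins 3 bases before the start of the gene and runs across it. The Mlx stretch lies at chr11:101087230-101087275 on the plus strand, with the E-box 40 bases before the start. Mnt, also on the plus strand, has its E-box 123 bases before the start (chr11:74830781-74830826), and Mxd4, on the minus strand, 219 bases before it (chr5:34187904-34187949). The windows of Mga, Mxd1, Mxd3 and Mxi1 did not hold these letters. The 4 genes with the motif were among the 6 members whose RNA did not pass the test between the tissues, as given below. Mga and Mxd1, which did not pass either, lacked the motif, and Myc, which passed, had no window. A link between motif and RNA was not tested. A match is a description of the sequence and not a measured binding site.

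Between liver and spleen Treg cells, 3 of the 9 genes differed. Mxd3 was higher in liver by 4.25-fold and Mxi1 by 1.80-fold, while Myc was higher in spleen by 1.98-fold. Max, the shared partner, had a log2 fold change of 0.00, and Mxd1, Mxd4, Mnt, Mga and Mlx did not pass the test. The 3 calls are 33.3% of the members, beside 16.2% of the 11716 genes tested in the same edgeR quasi-likelihood fit, of which 9.28% were higher in liver and 6.90% lower. Levels are CPM, the share of a library's TMM-scaled total that a gene took, in counts per 1e+06, log2 fold changes are liver minus spleen with their standard error (SE), and a call is a Benjamini-Hochberg adjusted p under 0.05 over all genes tested. For 5 members, Myc, Mxd3, Mxi1, Mnt and Mga, the liver and spleen libraries did not overlap, as for 32.9% of all genes tested.

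**Figure D1:**
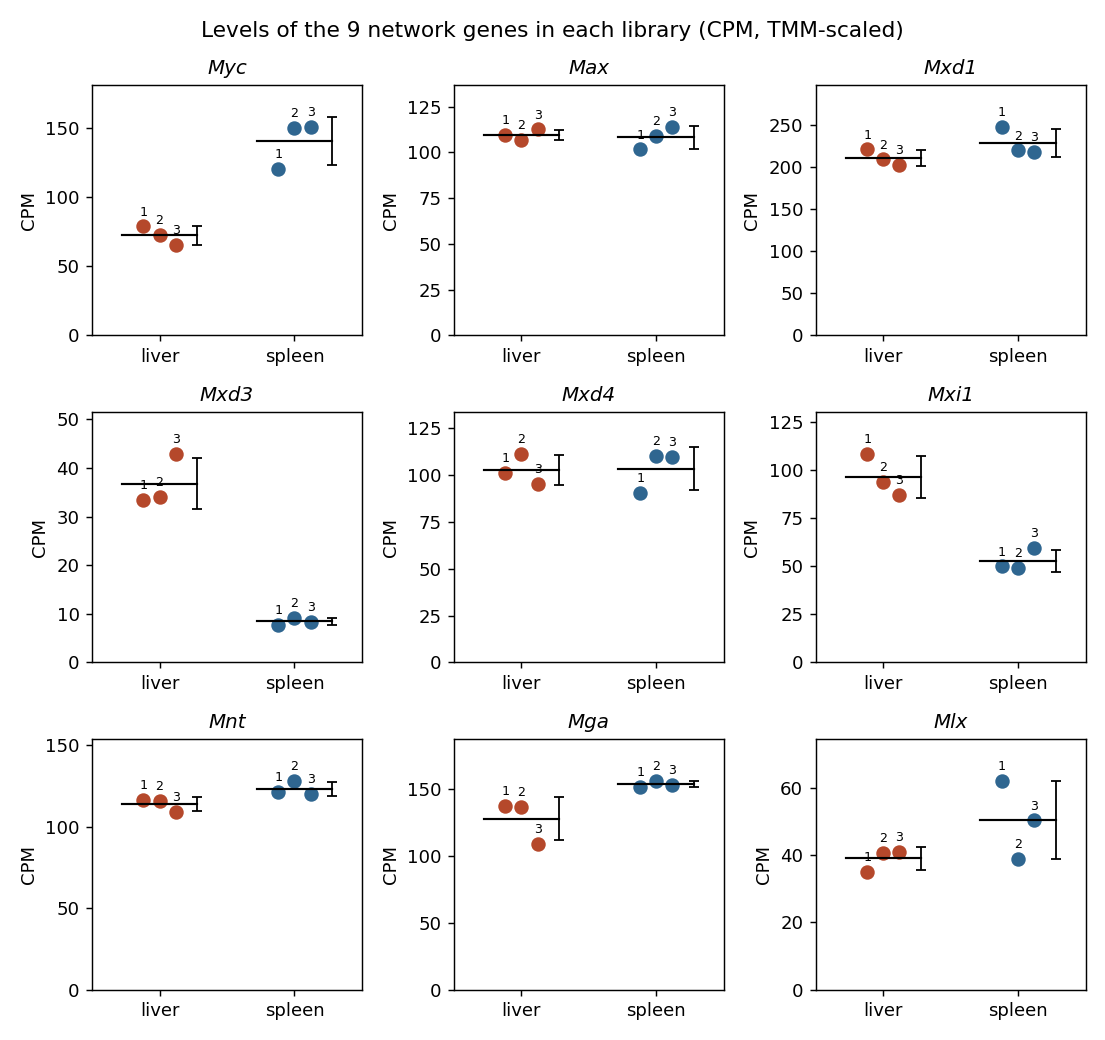
Each panel shows the level of a network gene in CPM (y axis, from 0) in the 3 liver and 3 spleen libraries, numbered; the line is the mean and the bar the SD over 3 libraries. Mxd3 and Mxi1 lie higher in every liver library, and Myc lies between 65.3 and 78.9 CPM in liver and between 120.5 and 151.1 CPM in spleen.

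Liver libraries held 8437055 to 10951720 counts in genes, spleen 1 held 1199410, and spleen 2 and spleen 3 held 11408960 and 11358446. Spleen 1, the shallow library, also stood apart on the first principal component, at 79.0 against 9.53 and 7.72 for the other spleen libraries and -34.8 to -29.1 for liver. Foxp3 was at 1265.7 ± 58.4 CPM in liver against 1159.5 ± 57.6 in spleen, and Cd4 at 662.1 ± 28.5 and 649.6 ± 64.3 CPM (SD, n = 3 each), so the defining markers of the sort were present in both tissues. Of 8 Treg and CD4 T cell markers tested, 37.5% were called, beside 16.2% of all genes. Ctla4 (log2 fold change 0.89) and Ikzf2 (0.35) were higher in liver, Il2ra (-0.60) was lower, and 5 did not pass. Transcripts listed as markers of other cell types were also present. Summed erythroid markers were at 27.8 to 36.0 CPM in liver and 285.9 to 385.6 CPM in spleen, with 15 of 15 tested lower in liver; Hba-a1, Hba-a2, Hbb-b1 and Hbb-b2 were at 0 in all libraries. Granulocyte markers (321.8 to 353.4 against 524.9 to 894.3 CPM), macrophage markers (74.2 to 84.2 against 142.8 to 222.7 CPM) and B cell markers (152.1 to 184.8 against 257.4 to 360.4 CPM) were likewise lower in liver in 12 of 17, 10 of 11 and 7 of 14 tested cases, while the granulocyte marker Mmp9 was higher in liver (28.5 ± 4.45 against 11 ± 3.32 CPM). Markers of NK and CD8 T cells summed to 101.7 to 130.2 CPM in liver and 46.7 to 54.9 CPM in spleen, with 5 of 8 higher in liver and Eomes lower. Nkg7 was the most abundant of them, at 63.1 ± 13 against 23.8 ± 4.82 CPM. Cd8a (log2 fold change 0.33 ± 0.41) and Cd8b1 (-0.08 ± 0.30) did not pass. Which cells these transcripts came from was not tested. Hepatocyte markers summed to 15.5 to 26.0 CPM in liver and 18.1 to 25.0 CPM in spleen, with 2 of 4 tested higher in liver, Alb and Ahsg, which were at 0 in every spleen library, and 1 lower, Trf (9.97 ± 0.869 against 17.2 ± 3.11 CPM).

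Myc was measured at 78.9, 72.6 and 65.3 CPM in liver 1, 2 and 3, and at 120.5, 149.9 and 151.1 CPM in spleen 1, 2 and 3. The lowest spleen library was above the highest liver library. The means were 72.3 ± 6.80 CPM in liver and 140.5 ± 17.3 in spleen (SD, n = 3 each), a log2 fold change of -0.99 ± 0.11 (SE; edgeR adjusted p = 7.37e-06). In bulk samples, fewer cells that carry a transcript and less of it per cell cannot be told apart. The spleen library with the highest summed erythroid and granulocyte markers, spleen 1, had the lowest Myc level of the spleen libraries; its B cell sum was the lowest of the 3 (257.4 CPM) and its macrophage sum (198.8 CPM) lay between the others. This order turns on spleen 1, the shallow library with 140 Myc reads, and it was not tested. With the marker genes of other cell types removed before scaling, the log2 fold change of Myc was -0.99; the part of RNA from such cells in the Myc level itself was not tested. Without spleen 1 it was -1.06 (edgeR adjusted p = 3.73e-06).

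Other Myc family genes had few reads. Mycn had at most 5 reads in a library, the symbol Mycl1 (now Mycl) at most 14, and Mycs had 0 in all 6; none of these passed the filter on low counts. As a floor, 3 counts amount to 2.58 CPM in spleen 1 and to 0.256 to 0.361 CPM elsewhere, for counting error only.

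Max, the obligate partner of Myc and of the Mxd proteins, stood at 109.4, 106.8 and 112.5 CPM in liver 1, 2 and 3 and at 101.6, 109.0 and 114.0 CPM in spleen 1, 2 and 3. The ranges overlapped. The log2 fold change was 0.00 ± 0.10 (SE), with a 95% interval from -0.20 to 0.21 and an edgeR adjusted p of 0.986. Per kilobase of merged exons, a scale on which genes can be compared, the Myc level was 0.577, 0.544 and 0.464 of the Max level in liver 1, 2 and 3. In spleen 1, 2 and 3 it was 0.949, 1.10 and 1.06 of it.

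Mxd3, an Mxd repressor known for its expression in dividing cells, showed the largest difference of the 9 genes and had the 67th smallest p of the 11716 genes tested. Its level was 33.5, 34.1 and 42.9 CPM in liver 1, 2 and 3 and 7.75, 9.17 and 8.38 CPM in spleen 1, 2 and 3. Every liver library was far above every spleen library. The means were 36.8 ± 5.23 and 8.43 ± 0.713 CPM (SD, n = 3 each), a log2 fold change of 2.09 ± 0.19 (SE; edgeR adjusted p = 8.00e-07). The value of spleen 1 rests on 9 reads, against 107 and 98 in the other spleen libraries and 279 to 463 in liver. Without spleen 1 the log2 fold change was 2.07 (edgeR adjusted p = 1.86e-06).

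Genes of dividing cells were higher in the same liver libraries. All 18 tested G2 and mitosis markers passed the test toward liver, with a median log2 fold change of 1.51, beside a median of -0.005 over all genes tested. Mki67, the Ki-67 proliferation marker, was at 887.7 ± 28.1 CPM in liver and 345.4 ± 28.1 in spleen, and Top2a, a topoisomerase of mitotic chromosomes, at 421.3 ± 11.6 and 169.0 ± 40.9 CPM (SD, n = 3 each). Of 18 S phase markers, 9 were higher and 0 lower, with a median of 0.42. Among all genes tested, 9.28% were higher in liver. The part of the share of dividing cells in the Mxd3 level was not tested. Mxd3 shares 105 of its 1327 exonic bases with Prelid1 on the opposite strand in the later annotation (GENCODE M21); the strand setting of the counting is not given in the sources used here. Prelid1, which encodes a mitochondrial lipid transfer protein, was also higher in liver, at 376.8 ± 1.60 against 264.0 ± 24.5 CPM (SD, n = 3 each; log2 fold change 0.53 ± 0.09, edgeR adjusted p = 0.000712). The part of Prelid1 reads in the Mxd3 count was not tested.

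The promoter window of Mxd3 is given in full because this gene changed most; it lies at chr13:55329682-55329981 on the minus strand of GRCm38.p6, and 71.0% of its bases are G or C. No base is in capitals, since none of the E-box and E2F words searched, given below, was in it on either strand.
Mxd3: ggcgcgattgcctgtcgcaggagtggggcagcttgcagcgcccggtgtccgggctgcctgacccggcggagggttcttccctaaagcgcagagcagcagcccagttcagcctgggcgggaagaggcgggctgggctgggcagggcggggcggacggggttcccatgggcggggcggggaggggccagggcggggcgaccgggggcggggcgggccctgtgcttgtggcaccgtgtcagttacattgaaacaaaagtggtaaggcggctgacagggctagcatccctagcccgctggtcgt
The motifs were the E-box and the E2F words TTTCCCGC, TTTGGCGC, TTTCGCGC and TTTGCCGC, read by the cell cycle factors of that name. E2F words were in 2.26% of the 32851 windows and in 0 of the 10 windows of the network genes. The lack of a match says only that these letters are not in the window. Other forms of the E2F sequence were not searched. The Mxd3 window holds gcgggaag, which differs in its last base from the reverse complement of TTTCCCGC.

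Mxi1, a further Mxd family repressor, was measured at 108.3, 93.6 and 86.9 CPM in liver 1, 2 and 3 and at 49.9, 49.1 and 59.5 CPM in spleen 1, 2 and 3. The groups did not overlap. Its log2 fold change was 0.85 ± 0.13 (SE; edgeR adjusted p = 0.00013), and without spleen 1 it was 0.83 (edgeR adjusted p = 0.000273). In Mxi1 the highest liver library was liver 1, whereas in Mxd3 it was liver 3, so the libraries were not ordered alike for the genes that were higher in liver. Mxi1 shares 194 of its 6656 exonic bases with Gm10197 on the opposite strand in the later annotation. The symbol Gm10197 is not in the count table, and the part of its reads in the Mxi1 count was not tested.

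The remaining Mxd repressors did not pass the test. Mxd1, known for its rise when cells leave the cycle and differentiate, was at 220.9, 208.9 and 202.4 CPM in liver and 247.9, 219.6 and 217.9 CPM in spleen. Its ranges overlapped, and its log2 fold change was -0.10 with a 95% interval from -0.30 to 0.09 (edgeR adjusted p = 0.507). The highest Mxd1 level was that of spleen 1, the library with the highest granulocyte sum; the part of granulocyte RNA was not tested. Mxd4 was at 101.4, 111.4 and 95.3 CPM in liver and 90.4, 110.3 and 109.8 CPM in spleen, with a log2 fold change of -0.04 (95% interval -0.27 to 0.19, edgeR adjusted p = 0.853). For both, the interval of the difference lies within the range from -0.30 to 0.19. Mxd4 shares 514 of its 3882 exonic bases with Gm42846 on the opposite strand in the later annotation. The symbol Gm42846 is not in the count table, and the part of its reads in the Mxd4 count was not tested.

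Mnt, a broadly expressed Max partner and repressor, was at 116.6, 115.8 and 109.2 CPM in liver and 121.4, 128.1 and 120.1 CPM in spleen. Each spleen library was above the liver libraries, but the log2 fold change was only -0.12 (95% interval -0.32 to 0.08, edgeR adjusted p = 0.463). Mga was at 137.3, 136.4 and 109.0 CPM in liver and 151.5, 155.8 and 152.9 CPM in spleen. Again no liver library reached the spleen range, and liver 3 was the lowest. The log2 fold change was -0.27 ± 0.10 (SE; 95% interval -0.49 to -0.05 before adjustment) and the edgeR adjusted p 0.0905, so Mga missed the threshold; with upper-quartile scaling it passed (-0.32, edgeR adjusted p = 0.0431).

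Mlx was at 35.1, 40.7 and 41.0 CPM in liver and 62.0, 38.9 and 50.3 CPM in spleen, the widest spread of the 9 genes within the spleen relative to the mean. The tissues overlapped, and the log2 fold change of -0.30 ± 0.16 (SE) had a 95% interval from -0.64 to 0.04 (edgeR adjusted p = 0.240). Mlx shares 385 of 1988 exonic bases with Psmc3ip on the opposite strand in the later annotation, and Psmc3ip was low, at 4.58 ± 1.89 CPM in liver and 4.14 ± 0.608 in spleen. Mlxip, which encodes the Mondo partner MondoA, was at 206.5 ± 32.8 and 219.0 ± 10.1 CPM (log2 fold change -0.08 ± 0.11, edgeR adjusted p = 0.678). Mlxipl, its carbohydrate-responsive relative ChREBP, had at most 10 reads in a library and was not tested.

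**Figure D2:**
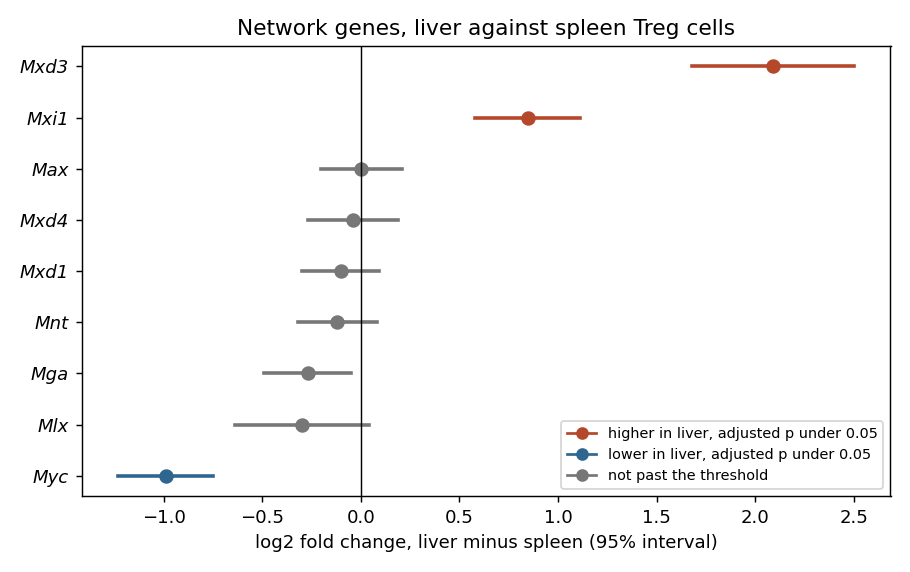
Points are the log2 fold changes of the 9 network genes (x axis, liver minus spleen) and bars their 95% intervals before adjustment for multiple tests. Mxd3 (2.09) and Mxi1 (0.85) lie to the right and Myc (-0.99) to the left, and the other 6 genes lie between -0.30 and 0.00.

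Per kilobase of merged exons, the order of the 9 genes differed between the tissues. In spleen Myc led at 57.4 ± 7.08 CPM per kilobase, with Max at 55.3 ± 3.20 and Mxd1 at 49.0 ± 3.61 (SD, n = 3), and the library values of these 3 genes overlapped. Mnt (26.8), Mxd4 (26.7) and Mlx (25.4) followed, again with overlapping libraries, and below them came Mga (11), Mxi1 (7.94) and Mxd3 (6.35) with no overlap between neighbours. In liver Max led at 56.0 ± 1.46 CPM per kilobase, followed by Mxd1 at 45.2 ± 2.01, with no overlap. Myc (29.5), Mxd3 (27.8), Mxd4 (26.5) and Mnt (24.8) came next, and each neighbouring pair of these overlapped between libraries. Mlx (19.6), Mxi1 (14.5) and Mga (9.16) were lowest. Mxd3 thus went from the lowest per-length level of the 9 genes in spleen to the fourth in liver, and Myc from the first to the third. With the longest transcript in place of merged exons, Mxi1 stood at 19.1 CPM per kilobase in liver and 10.5 in spleen and overlapped Mlx in liver and Mga in spleen.

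The makeup of the Mxd family differed with it. The summed per-length level of Mxd1, Mxd3, Mxd4 and Mxi1 was 115.0, 113.2 and 113.3 CPM per kilobase in liver 1, 2 and 3 and 89.7, 89.8 and 90.2 in spleen 1, 2 and 3. Mxd3 made up 22%, 22.7% and 28.5% of that sum in the same liver libraries and 6.50%, 7.70% and 7% in those of spleen. Mxd1 made up 39.7% ± 1.44 in liver and 54.5% ± 4.12 in spleen, and Mxi1 12.7% ± 1.34 and 8.83% ± 0.936 (SD, n = 3 each). Relative to the summed level of these 4 genes and Mnt, Myc stood at 0.230, 0.214 and 0.195 in liver 1, 2 and 3 and at 0.424, 0.520 and 0.531 in spleen 1, 2 and 3. These ratios describe RNA and not protein, they take in the 3 genes already called above, and they were given no test.

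**Figure D3:**
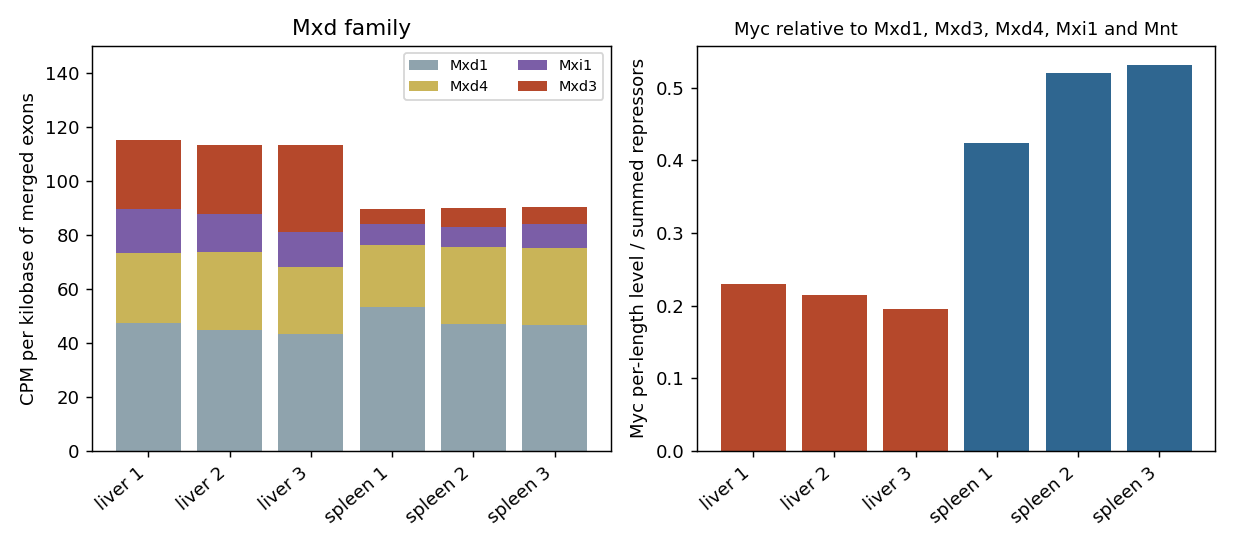
Left, stacked bars give the level of the 4 Mxd family genes in CPM per kilobase in each library, summing to 113.2 to 115.0 in liver and 89.7 to 90.2 in spleen. Right, bars give the Myc level divided by the summed levels of Mxd1, Mxd3, Mxd4, Mxi1 and Mnt, between 0.195 and 0.230 in liver and between 0.424 and 0.531 in spleen.

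The counts of the pathway lists that follow stand beside 16.2% called over all genes tested (9.28% higher and 6.90% lower in liver) and a median of -0.005. Of 18 genes listed for the Sin3 corepressor, 0 were higher and 1 lower in liver, or 5.56%, with a median log2 fold change of 0.11. Limma-voom called 3 of them higher and 2 lower, beside 1521 higher and 1243 lower over all genes. The number lower was 0 without liver 2, spleen 2 or spleen 3, and without liver 3 there was 1 gene higher. The deacetylase gene Hdac1 was at -0.27 ± 0.09 (edgeR adjusted p = 0.0581), and Arid4a and Arid4b, which encode Sin3 complex subunits, at 0.25 ± 0.09 and 0.25 ± 0.10. The scaffolds Sin3a (0.02 ± 0.10) and Sin3b (-0.08 ± 0.10) had log2 fold changes near 0. Of 19 Myc coactivator genes, 0 were higher and 1 lower, or 5.26% (median -0.07), namely the histone acetyltransferase gene Kat2a, at 54.0 ± 2.91 CPM in liver and 85.4 ± 5.51 in spleen (SD, n = 3 each; log2 fold change -0.67 ± 0.12, edgeR adjusted p = 0.000535). Cdk9 (0.21 ± 0.09), Ruvbl1 (-0.29 ± 0.14) and Trrap (-0.21 ± 0.11) did not pass; without spleen 1 the number lower was 2.

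Of 15 genes of the Polycomb complex that holds Mga, 1 was higher and 0 lower, or 6.67% (median -0.11). It was Ehmt2, which encodes the histone H3 methyltransferase G9a, at 504.4 ± 34.7 against 362.1 ± 15.2 CPM (SD, n = 3 each; log2 fold change 0.47 ± 0.09, edgeR adjusted p = 0.00174). Hdac1, Ring1 (-0.31 ± 0.14) and Hdac2 (-0.31 ± 0.14) came next by p and did not pass. The number higher was 2 without liver 3 or spleen 1, the number lower was 1 without liver 3, and the median was 0.08 without spleen 3.

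Among 21 genes that set the stability or phosphorylation of Myc protein, 4 were higher in liver and 1 lower (median 0.04), so that 23.8% were called, beside 16.2% of all genes. Pim1, a kinase that phosphorylates Myc, was at 1346 ± 178.0 CPM in liver and 735.1 ± 30.4 in spleen (SD, n = 3 each; log2 fold change 0.87 ± 0.10, edgeR adjusted p = 1.02e-05). Aurka (1.19 ± 0.17), a mitotic kinase, C330027C09Rik (1.35 ± 0.21), the table's symbol for the phosphatase inhibitor gene Cip2a, and the deubiquitinase gene Usp28 (0.70 ± 0.13) were higher too. Aurka is also among the G2 and mitosis markers given above. The nucleolar deubiquitinase gene Usp36 was lower (-0.50 ± 0.11, edgeR adjusted p = 0.0039), and without spleen 1 the number lower was 2. Fbxw7, the ubiquitin ligase subunit that marks Myc for destruction, was at 29.0 ± 2.46 and 24.8 ± 1.54 CPM, with a log2 fold change of 0.24 ± 0.16.

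Genes that Myc is known to induce included several of ribosome production that were lower in liver. Of 50 listed and tested, 12 passed the test as lower in liver and 3 as higher, 35 did not pass, and the log2 fold change was below 0 for 45 of 50, beside 50.7% of all genes tested. The calls were 30% of the list, beside 16.2% of all genes, and the list median was -0.32, beside -0.005. The count lower was 18 with upper-quartile scaling and 26 with limma-voom. More of all genes were lower in these fits too, 1014 and 1243, beside 808 in the main fit. Pprc1, a coactivator of mitochondrial biogenesis, was at 32.1 ± 2.28 CPM in liver and 71.3 ± 4.57 in spleen (SD, n = 3 each; -1.17 ± 0.13, edgeR adjusted p = 5.79e-06). The nucleolar genes Mybbp1a (-0.79 ± 0.11), Nolc1 (-0.77 ± 0.12) and Nop56 (-0.58 ± 0.09), which serve ribosome production, were lower too, as was Srm (-1.01 ± 0.19), which encodes spermidine synthase. Ldha (0.42 ± 0.09), the lactate dehydrogenase gene, Odc1 (0.50 ± 0.11), the first enzyme gene of polyamine synthesis, and E2f1 (0.91 ± 0.26), a factor of cell cycle entry, were higher in liver. Ncl and Npm1, abundant nucleolar genes, did not pass, at -0.16 and -0.21. Without spleen 1 the count lower was 18, and without liver 2 it was 8. Over all genes, 486 to 989 were lower with a library left out.

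The 17 genes listed as repressed by Myc included 15 that were tested, of which 8 rose and 1 fell in liver relative to spleen; the remaining 6 did not pass, and the median was 0.68. The calls were 60% of those tested, beside 16.2% of all genes, whose median was -0.005. Itgb1, an integrin chain, was at 590.5 ± 11.9 against 303.8 ± 22.8 CPM (SD, n = 3 each; 0.96 ± 0.10, edgeR adjusted p = 1.65e-06). Klf6 (1.06 ± 0.12), a zinc finger factor, Cdkn2c (1.57 ± 0.23), an inhibitor of the G1 kinases Cdk4 and Cdk6, and Ccng2 (0.76 ± 0.11), an atypical cyclin, were also higher. Cdkn1a, which encodes p21, was at 4.76 CPM in liver and 1.88 in spleen and did not pass. Itgal, the LFA-1 integrin chain, was lower (-0.31 ± 0.09, edgeR adjusted p = 0.0259), and the count lower was 0 when any library other than spleen 1 was left out. Differences of some listed genes, such as Itgb1, Klf6 and Pim1, in these libraries were known when the lists were drawn up, so these lists are not independent evidence of a direction.

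**Figure D4:**
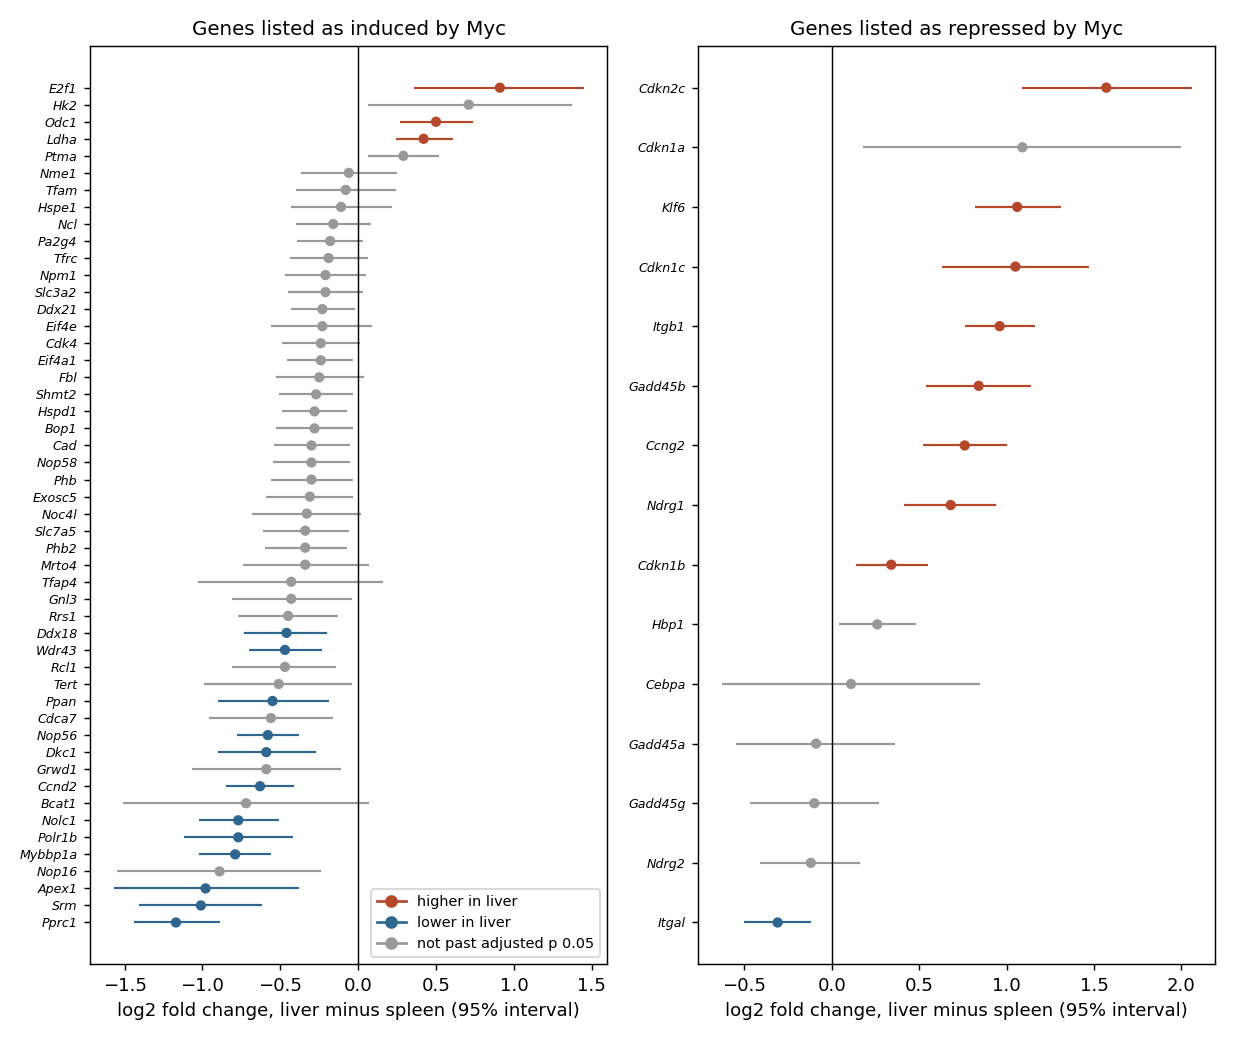
Points are log2 fold changes (x axis, liver minus spleen) of the tested genes listed as induced (left) and repressed (right) by Myc, with 95% intervals before adjustment; colours mark genes past an adjusted p of 0.05. On the left 45 of 50 points lie below 0, with Pprc1 (-1.17) lowest, and on the right Cdkn2c (1.57) is highest.

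Of 13 genes listed as targets of Mondo and Mlx dimers, 2 were lower in liver and 0 higher (median -0.11), or 15.4%, near the 16.2% called over all genes. Pfkfb3, a regulator of glycolysis, was at 55.2 ± 4.74 and 71.6 ± 4.89 CPM (SD, n = 3 each; log2 fold change -0.39 ± 0.12, edgeR adjusted p = 0.0359). Pklr, the pyruvate kinase gene of liver and red cells, was at 0.183 ± 0.318 CPM in liver and 7.31 ± 1.91 in spleen, where the erythroid markers were also higher; the part of erythroid RNA was not tested. Txnip, the best known target of MondoA, was at 517.5 ± 57.5 and 629.5 ± 115.5 CPM with a log2 fold change of -0.27 ± 0.12, and did not pass. Hk2, a hexokinase gene (0.71 ± 0.31), also did not pass, nor did Gpd1, at 0.668 and 1.48 CPM. The number lower was 1 when any library other than spleen 1 was left out.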

How the data were processed

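Treg cells of liver and spleen gave 3 libraries each, numbered in accession order within a tissue. The authors deposited raw counts of reads per gene symbol, and the reads went through HISAT2 2.1 and HTSeq 0.11 with mm9 as the build, per the submitters' processing notes. Neither annotation nor strand setting is given in the sources used here. The 5 HTSeq summary rows (25.5% to 29.0% of a library's counts) were left out. Each pair of libraries differed by more than sampling noise (chi-square at least 4.71 per degree of freedom).

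Counts were filtered with filterByExpr (11716 genes left), TMM-scaled and compared by edgeR 4.0.16 (quasi-likelihood F test) in R 4.3.3, with Benjamini-Hochberg adjustment. The method was also run on simulated counts, with the same spread set for every gene and library. That run does not cover a library as far apart on the first principal component as spleen 1. SE is that implied by the F statistic. Exon lengths came from GENCODE M21 (GRCm38) protein-coding transcripts; they scale levels between genes only. Symbols no longer in use were matched by a RefSeq table (GRCm38.p6). Alternatives were DESeq2 size factors, upper-quartile scaling, the DESeq2 1.42.0 Wald test and limma-voom with sample quality weights (limma 3.58.1), called limma-voom throughout. Further alternatives were other filters, removal of marker genes, and leaving out each library. The longest transcript as length was chosen after seeing the data.

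The members and lists were chosen with earlier results of these data known. The rule for named genes took the 9 members, the 4 genes of each pathway list with the smallest p, the 2 most abundant of each marker list and the 5 genes nearest to Myc; others were named after their values were seen. Some genes this rule picks among the marker lists are given only within their sums, and 1 gene of the pathway lists is not reported here.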

Additional observations from a re-analysis of the deposited data

How the results depend on the processing

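Myc, Mxd3 and Mxi1 kept their direction and their call in each of the 13 alternatives of scaling, test, filter, marker removal and left-out library: Myc from -1.06 to -0.93 on the log2 scale, Mxd3 from 1.97 to 2.16 and Mxi1 from 0.76 to 0.96. Marker removal left the counts of these genes unchanged, so it cannot show whether RNA of other cells is among them. Mga was called only with upper-quartile scaling, which made 2 members lower in liver. Max and Mxd4, both near 0 and not called, changed sign: Max was at -0.004 with DESeq2 size factors or the DESeq2 Wald test, -0.042 with upper-quartile scaling, -0.025 with limma-voom, -0.002 with the 5 CPM filter and from -0.023 to 0.046 with a library left out, and Mxd4 from -0.098 to 0.005 with a library left out. With upper-quartile scaling 2 Sin3 genes, 1 gene of the Mga complex and 2 Myc stability genes were lower, the median of the repressed list was 0.63, and of all genes 954 were higher and 1014 lower, beside 1087 and 808 with TMM. With the DESeq2 Wald test 2 stability genes were lower. Limma-voom called 1521 genes higher and 1243 lower in liver, and 3 Sin3 genes, 2 of the Mga complex, 6 stability genes and 1 Mondo target higher; it called 2 Sin3 genes, 1 of the Mga complex, 2 stability genes and 26 induced targets lower (12 with edgeR). The repressed median was 0.73 with no filter and 0.50 with the 5 CPM filter, where the Mondo median was -0.03. The cause of these shifts was not tested.

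With each library left out, 722 to 1245 genes were higher and 486 to 989 lower, and 2 members were higher and 1 lower each time. Counts higher and lower were 0 to 1 and 0 to 1 for Sin3 genes, 1 to 2 and 0 to 1 for the Mga complex, 0 and 1 to 2 for coactivators, 4 to 5 and 1 to 2 for stability genes, 2 to 4 and 8 to 18 for induced targets, 7 to 9 and 0 to 1 for repressed targets, and 0 and 1 to 2 for Mondo targets. Medians were 0.05 to 0.13, -0.13 to 0.08, -0.13 to -0.06, 0.03 to 0.12, -0.38 to -0.28, 0.57 to 0.76 and -0.17 to -0.04 in that order. The log2 ratio of liver to spleen for Myc per repressor was -1.21, from -1.30 to -1.15 with a library left out and -1.22 with the longest transcript as length. No paired analysis was made because the labels give the tissues no shared replicate numbers and name no animal. The deposited columns alternate between liver and spleen, and whether neighbouring columns were matched is not given. Depth limits Mxd3 most, at 9 reads in spleen 1.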

Other observations

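The 5 genes nearest to Myc in their pattern were found by the root mean square difference of mean-centred log2 CPM over the 6 libraries, which also takes in the difference between the tissues. They were Adcy6, an adenylate cyclase gene (difference 0.0685), C3, a complement gene (0.0751), Plekhg2 (0.0856), Sfmbt2 (0.0906) and Gm15708 (0.0949). Adcy6 was at 83.6 ± 8 CPM in liver and 161.5 ± 19.0 in spleen, and Plekhg2 at 240.8 ± 9.95 and 446.2 ± 29.8 CPM (SD, n = 3 each). Sfmbt2, C3 and Gm15708 were at 9.86, 11.7 and 10.2 CPM in liver. The likeness rests on 6 libraries of the same sorts that also gave the Myc values, and no test was made of it.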
